A study of Mus musculus with 4 samples.

Results

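The genes described here are 9 markers of the liver sinusoidal endothelium, namely Stab1, Stab2, Lyve1, Clec4g, Fcgr2b, Oit3, Kdr, Tek and Pecam1. They were listed by symbol for their known place in this cell type, with earlier results of these data known. All 9 were measured, by 10 probe sets annotated to a single symbol, among 18820 named genes on the array. Liver RNA of male C57Bl/6J mice aged 16 to 17 weeks was pooled into 4 samples and each pool was measured on 1 array. The acid groups received sodium [1-13C]acetate (6 mice), sodium [2-13C]propionate (6 mice) or sodium [2,4-13C2]butyrate (4 mice), each at 0.3 M, into the cecum, and the control group phosphate-buffered saline (6 mice). The infusion ran for 6 h at 0.2 ml/h, which gave 2.4 mmol/h/kg of each acid, in awake mice that had fasted briefly. All 4 groups, control included, carried a permanent cecum catheter and had eaten a semi-synthetic diet with palm oil for 6 weeks.

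Because each group is 1 pool on 1 array, no spread between replicates exists, and no difference below has a test or an error. A pool gives the average of its livers, and a single liver weighed more in the butyrate pool. Values are log2 expression levels, so a difference of 0.26 is 1.2-fold and one of 0.58 is 1.5-fold. Counts over all genes use the upper 9410 genes by mean level, those that reached 5.55, which is called the floor below. In whole liver RNA, fewer cells of a type and less RNA per cell cannot be told apart.

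Sinusoidal endothelial cells line the liver's capillaries. They have open pores and no continuous basement membrane, so that plasma reaches the hepatocytes, and they clear hyaluronan, modified proteins and small immune complexes from blood through scavenger and Fc receptors. Blood from the intestine, which carries absorbed short-chain fatty acids, reaches these cells through the portal vein. Acetate, propionate and butyrate are made by gut bacteria and differ in the length of their carbon chain.

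Lyve1 differed from the control pool more than any other member, and most with butyrate. The other 8 members lay within 1.2-fold of control with every acid. Across the 4 pools, Kdr, Stab1 and Stab2 held nearly the same level. 

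Promoters of the 3 members with the smallest range over the pools are shown, because these genes held one level in all 4 liver pools. RefSeq (GRCm38.p6) promoter sequences were matched by gene ID for 6 of the 9 members, and the 250 bases before the start are printed 5′ to 3′ on the gene's own strand. Capitals mark matches to CNGGAA on either strand, a core that binds ETS factors, a family to which endothelial regulators such as ERG belong. Kdr lies on the minus strand at chr5:75978456-75978705, Stab1 on the minus strand at chr14:31168642-31168891 and Stab2 on the minus strand at chr10:87007943-87008192.
Kdr: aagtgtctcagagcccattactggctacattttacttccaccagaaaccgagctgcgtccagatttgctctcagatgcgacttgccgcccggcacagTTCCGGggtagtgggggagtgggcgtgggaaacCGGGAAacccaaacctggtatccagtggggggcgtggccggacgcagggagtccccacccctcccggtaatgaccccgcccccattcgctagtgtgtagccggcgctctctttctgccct
Stab1: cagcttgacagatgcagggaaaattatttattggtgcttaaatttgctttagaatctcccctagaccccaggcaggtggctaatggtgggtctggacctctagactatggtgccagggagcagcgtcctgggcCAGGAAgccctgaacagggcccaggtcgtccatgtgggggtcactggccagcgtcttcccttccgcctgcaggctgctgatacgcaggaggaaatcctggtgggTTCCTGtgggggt
Stab2: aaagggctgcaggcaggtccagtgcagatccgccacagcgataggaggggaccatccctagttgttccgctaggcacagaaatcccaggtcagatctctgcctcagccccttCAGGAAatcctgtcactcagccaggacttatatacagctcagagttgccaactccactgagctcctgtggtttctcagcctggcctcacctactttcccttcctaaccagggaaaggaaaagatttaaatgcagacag
The core matched 2 times in Kdr, 2 times in Stab1 and 1 time in Stab2. In the member promoters not printed, of genes with wider ranges, it matched 2 times in Tek, 1 time in Clec4g and 0 times in Fcgr2b. Of all 32851 promoters of this length, 54.2% held at least 1 match and 19.9% held 2 or more, and 5 of the 6 member promoters held at least 1. GATAA, the core bound by GATA factors such as GATA4 of this endothelium, was found on either strand in 0 of the 6 and in 22.6% of all promoters and so overlapped no match of the first core in the member promoters. A match is only a run of letters, and its absence covers these windows alone.

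Stab1 and Stab2 are large scavenger receptors of the sinusoid, and Stab2 is the main receptor by which the liver clears hyaluronan. Stab1 stood at 8.77, 8.76 and 8.80 in the acetate, propionate and butyrate pools and at 8.76 in the control pool. Stab2 stood at 9.23, 9.24 and 9.30 with acetate, propionate and butyrate, against 9.28 in control. For both genes all 4 pools lay within 1.05-fold of one another. The range over the pools was 0.046 for Stab1 and 0.067 for Stab2, and 264 and 670 of the 9410 genes had a smaller one. A further probe set is annotated to Stab1 together with Nt5dc2 and was not used. It read 8.16, 8.08 and 7.93 in the acetate, propionate and butyrate pools and 7.91 in control, so its largest ratio, 0.25 with acetate, cannot be assigned to either gene.

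Lyve1 encodes a hyaluronan receptor found on sinusoidal and lymphatic endothelium, and also on some tissue macrophages. Its level was 8.51 with acetate, 8.63 with propionate and 8.93 with butyrate, against 8.26 in the control pool. All 3 acid pools lay above control, and the pools followed the order acetate, propionate, butyrate. The ratios to control were 1.19-fold, 1.30-fold and 1.59-fold (log2 0.26, 0.37 and 0.67). By this ratio Lyve1 ranked 462, 205 and 50 from the top of the 9410 genes in the acetate, propionate and butyrate comparisons. Its range of 0.67 over the pools exceeded that of 9184 of the 9410 genes. Set against the other 3 pools averaged, in place of control alone, Lyve1 had ratios of -0.092, 0.065 and 0.46 with acetate, propionate and butyrate, and the butyrate value alone passed 1.2-fold.

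**Figure D1:**
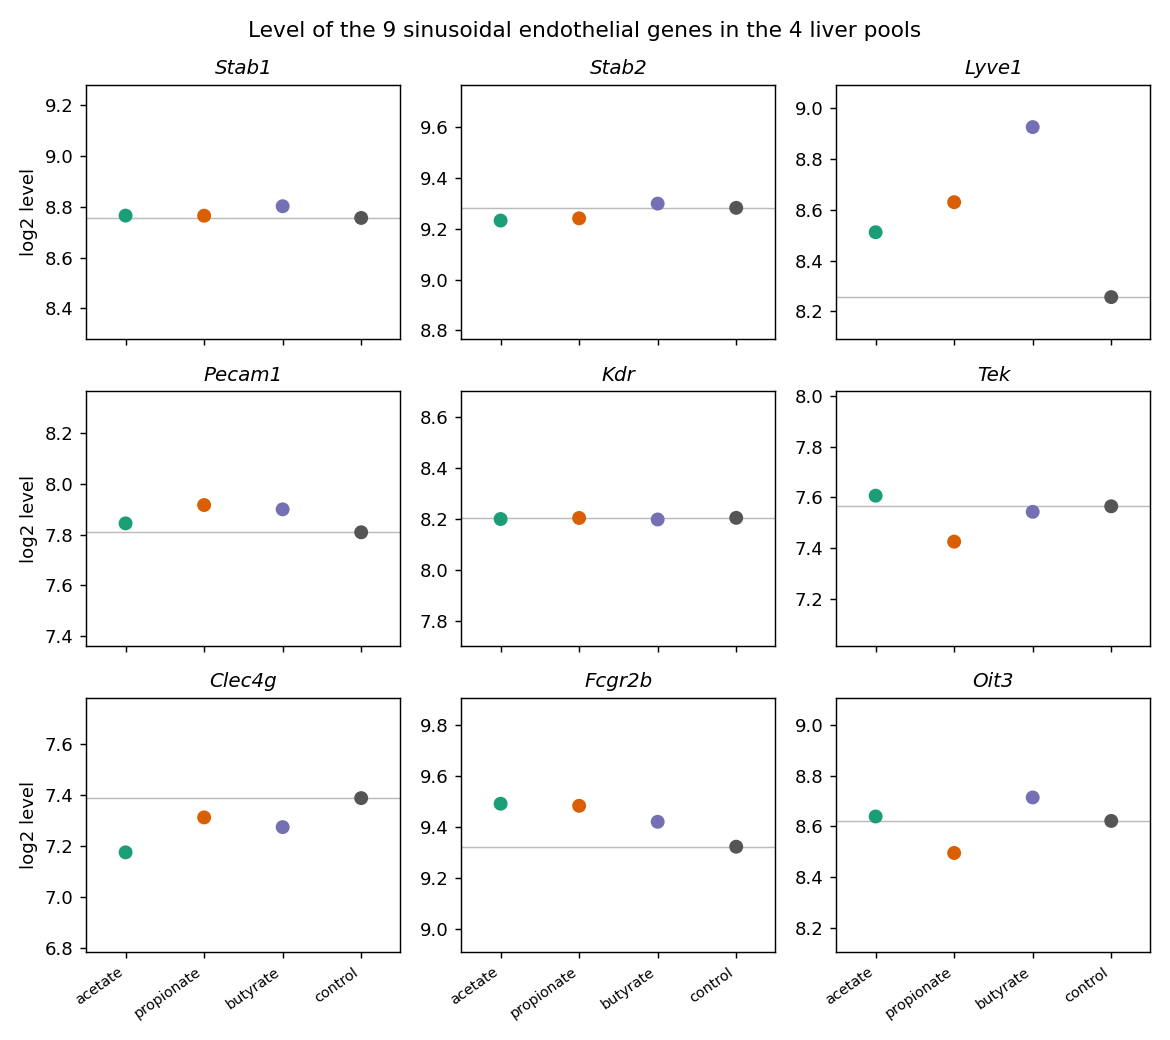
Log2 level of each of the 9 genes (vertical axes, each spanning 1 log2 unit) in the acetate, propionate, butyrate and control pools (1 point per pool, grey line at the control level). Lyve1 lies at 8.93 with butyrate and 8.26 in control, while Kdr, Stab1 and Stab2 hardly leave the grey line.

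Clec4g encodes a C-type lectin of the sinusoid, and its value here is the average of 2 probe sets that did not behave alike. The averaged level was 7.18, 7.31 and 7.27 with acetate, propionate and butyrate and 7.39 in control, with ratios of -0.21, -0.08 and -0.11. The bright probe set, which covers the RefSeq transcript, read 10.73, 10.70 and 10.78 with the 3 acids in that order and 10.72 in control. Its ratios were 0.014, -0.012 and 0.062. The dim probe set, which matches a cDNA clone, read 3.62, 3.92 and 3.77 with acetate, propionate and butyrate and 4.06 in control, below the floor in all pools. The lower averages of Clec4g therefore came from the dim probe set, and the bright one lay within 1.05-fold of control.

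Fcgr2b encodes the inhibitory Fc receptor for IgG, which sinusoidal endothelium uses to remove small immune complexes and which B cells and macrophages also carry. It read 9.49, 9.48 and 9.42 with acetate, propionate and butyrate, against 9.32 in control. All 3 acid pools were higher, by ratios of 0.17, 0.16 and 0.10, each under 1.2-fold. Against the other 3 pools averaged, they were 0.083, 0.072 and -0.012. With each acid it was, after Lyve1, the member with the highest ratio. The activating receptor gene Fcgr3, a close paralog whose probes may share target sequence with it, had ratios of 0.11, 0.10 and 0.34 and so was highest in the butyrate pool.

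Oit3, which encodes a protein with a zona pellucida domain made in liver, read 8.64, 8.50 and 8.71 with acetate, propionate and butyrate and 8.62 in control. Its ratios were 0.018, -0.13 and 0.092, lowest with propionate and highest with butyrate. Between those pools it differed by 0.22 on the log2 scale.

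Kdr, the main receptor for VEGF-A on endothelium, read 8.20 in the acetate, propionate, butyrate and control pools alike. Highest and lowest pool differed by 0.0063, and only 1 of the 9410 genes had a smaller range. Tek, the receptor of the angiopoietins, read 7.61, 7.43 and 7.54 with acetate, propionate and butyrate, against 7.57 in control. The propionate pool was the lowest, at -0.14, and the acetate pool the highest, at 0.042. Pecam1, a junction protein of endothelium that platelets and leukocytes share, read 7.84, 7.92 and 7.90 with the 3 acids and 7.81 in control. All 3 ratios were above 0, at 0.035, 0.11 and 0.090. Platelet markers (5 measured of 6 listed) had median ratios of -0.15, 0.091 and 0.13 in the same order. For the 2 at or above the floor the medians were -0.57, 0.080 and 0.38. Their part in the Pecam1 values was not tested.

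**Figure D2:**
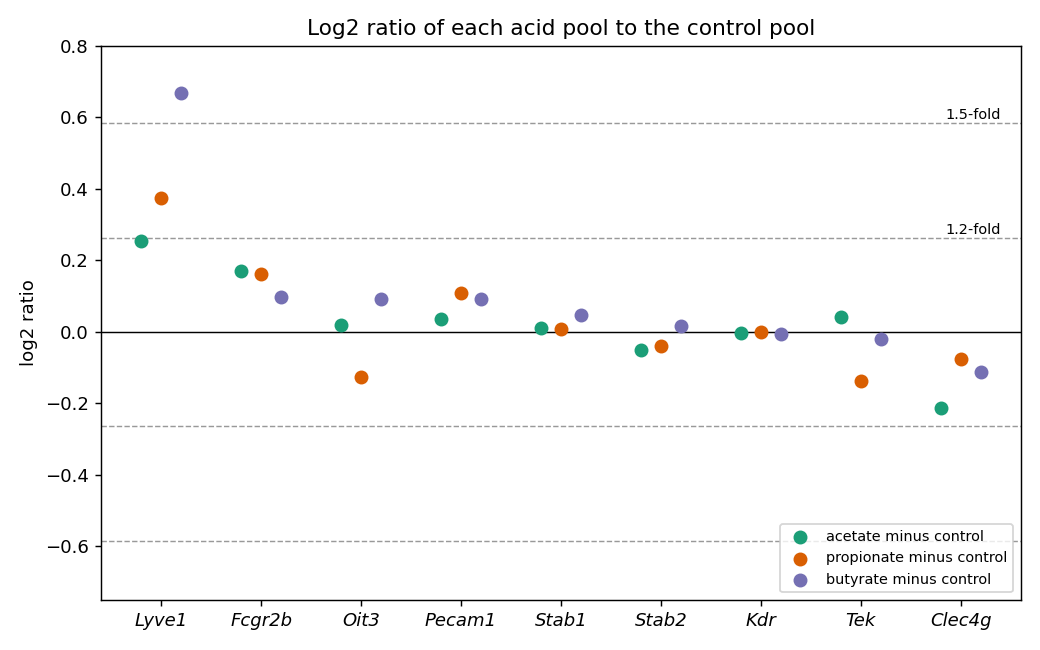
Log2 ratio of the acetate, propionate and butyrate pool to the control pool (vertical axis) for the 9 genes (horizontal axis, in order of the butyrate ratio), 1 point per comparison, with dashed lines at 1.2-fold and 1.5-fold. Lyve1 with butyrate, at 0.67, is the only point past 1.5-fold.

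As a group the members stayed near control. With acetate 6 of 9 lay above control and 0 of 9 differed by 1.2-fold, where 9.91% of all genes at or above the floor did; at 1.5-fold the counts were 0 of 9 and 1.14%. Of all genes at or above the floor, 46.2% lay above control with acetate, 39.2% with propionate and 48.7% with butyrate. With propionate 4 of 9 lay above control and 1 of 9, Lyve1, passed 1.2-fold, beside 10.2% of all genes, while 0 of 9 passed 1.5-fold, beside 1.11%. With butyrate 6 of 9 lay above control, and Lyve1 alone passed both 1.2-fold and 1.5-fold, which 8.6% and 1.12% of all genes did. At 1.2-fold, 1 gene of 9 is close to the share of all genes, so the 1.2-fold counts set no group of members apart. The 1.5-fold count with butyrate is above the share of all genes but consists of Lyve1 only.

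The median ratio of the members was 0.018 with acetate, -0.00050 with propionate and 0.046 with butyrate. Over all genes at or above the floor the medians were -0.011, -0.034 and -0.0036. Without Lyve1 the members' medians were 0.013, -0.021 and 0.031. Summed on the linear scale, the level of the 9 genes was 1.03, 1.03 and 1.08 times that of control with acetate, propionate and butyrate. This sum includes Lyve1, and Clec4g enters it as the log2 average of its bright and dim probe sets.

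The range over all 4 pools gives the same picture. For 6 of 9 members it was under the median of all genes at or above the floor, 0.184, and for 8 of 9 it stayed under 1.2-fold, as for 72.6% of those genes. Lyve1 alone of the 9 reached a range of 1.5-fold, as did 3.36% of those genes.

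**Figure D3:**
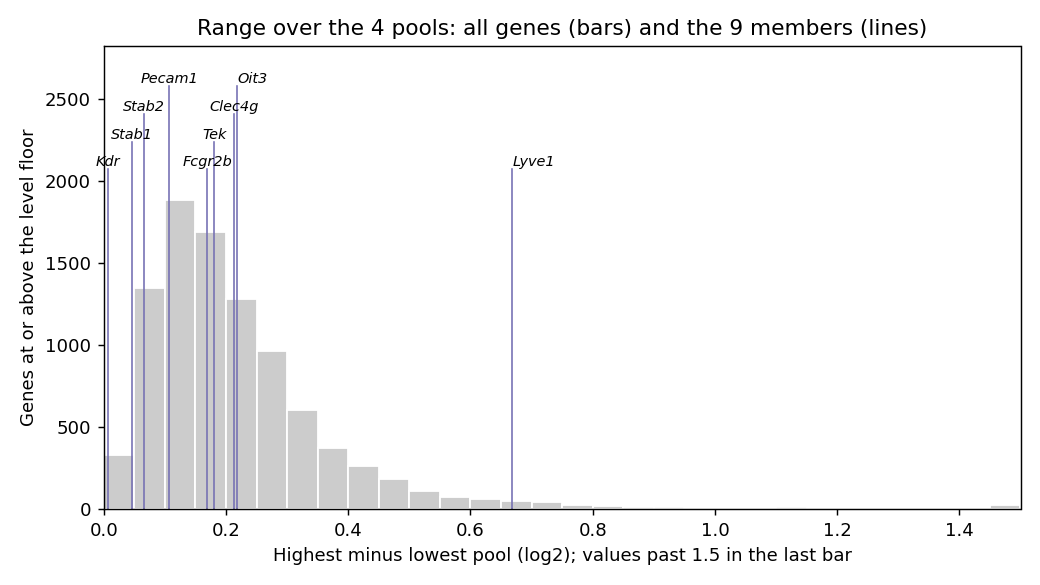
Number of genes at or above the floor (bars, vertical axis) by highest minus lowest pool on the log2 scale (horizontal axis), with a line for each of the 9 members. Kdr sits at 0.0063 at the far left, Lyve1 at 0.67 in the right tail, and the other 7 between 0.046 and 0.22.

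The acids were infused at one molar rate and can be set against one another. Between propionate and acetate 0 of 9 members differed by 1.2-fold (6.91% of all genes) or by 1.5-fold (0.553%). The widest difference was that of Tek, at -0.18 for propionate minus acetate. Between butyrate and acetate only Lyve1 passed 1.2-fold, at 0.41 (13.5% of all genes), and 0 of 9 passed 1.5-fold (1.9%). For butyrate minus propionate it was again Lyve1 alone past 1.2-fold, at 0.30 (10.7% of all genes), with 0 of 9 past 1.5-fold (0.956%). Oit3 followed at 0.22 and Tek at 0.12. Over these 3 pools the order of Lyve1 was that of the acids' chain length, with 1 pool for each acid. The 14 Kupffer cell markers given below had that order too, all 14 being higher with propionate than acetate and with butyrate than propionate. Of all genes at or above the floor, 41.7% and 59.6% were higher in these comparisons.

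Other genes of the sinusoidal endothelium were set beside the members. Of 18 listed, 17 were measured, all at or above the floor. Higher than control were 8 of 17 with acetate, 9 with propionate and 12 with butyrate, with median ratios of -0.023, 0.0065 and 0.11. Past 1.2-fold with butyrate were 2 higher and 1 lower. Il1a, a cytokine, had ratios of 0.18, 0.18 and 0.36 with acetate, propionate and butyrate. Sdc3, a heparan sulfate proteoglycan, had -0.19, 0.14 and 0.28. Ushbp1 had -0.09, -0.24 and -0.39 and was the lowest with butyrate. Meis2, a homeobox factor, split the acids, at -0.27 and -0.26 with acetate and propionate and 0.24 with butyrate. All 17 ratios with butyrate lay below that of Lyve1.

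Genes that mark endothelium by its place in the lobule did not move as one. Of 8 pericentral genes, 6 of them at or above the floor, 5 were higher with acetate, 5 with propionate and 2 with butyrate, and the medians were 0.16, 0.055 and -0.15. Rspo3, which enhances Wnt signalling from the central vein, read 6.83, 6.94 and 6.50 with acetate, propionate and butyrate and 6.59 in control. It was higher with 2 acids and slightly lower with butyrate. The Wnt ligand gene Wnt2 went the other way, at 5.53, 5.61 and 5.98 with the 3 acids and 5.65 in control, levels near the floor. Cdh13 had ratios of 0.33, 0.06 and -0.24 and the receptor gene Kit -0.04, -0.27 and -0.28.

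Of 7 periportal genes, 4, 5 and 5 were higher with acetate, propionate and butyrate, with medians of 0.015, 0.21 and 0.097. Cd36, a fatty acid transporter that hepatocytes and macrophages also use, had ratios of 0.58, 0.56 and 0.35. The scavenger receptor gene Msr1, also a macrophage gene, had -0.10, 0.29 and 0.31. Efnb2, an arterial ephrin, had 0.15, 0.21 and 0.02, and Ltbp4 had 0.21, -0.05 and -0.02.

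Endothelial genes common to all vessels had medians close to 0. Of 20 measured, 12, 11 and 10 were higher with acetate, propionate and butyrate, with medians of 0.014, 0.0055 and 0.012, and 16 lay at or above the floor. Cdh5, the cadherin that defines endothelial junctions, read 8.99, 9.18 and 9.26 with the acids and 9.02 in control. Cd34, which some stromal and progenitor cells also carry, read 6.76, 6.62 and 6.12 with acetate, propionate and butyrate, against 6.15 in control. It was higher with acetate and propionate by 0.61 and 0.47, and level with control with butyrate. Emcn had ratios of 0.25, 0.04 and 0.24 and the transcription factor gene Sox18 0.04, -0.05 and -0.26.

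Markers of large vessels (8 measured, 3 at or above the floor) had medians of -0.046, -0.0055 and -0.095. Among them Plvap had 0.15, 0.08 and 0.09, Vwf -0.02, 0.02 and -0.10, and Gja4 -0.06, -0.08 and -0.04. Of the lymphatic genes, Pdpn and Mmrn1 lay below the floor, and the 4 measured had medians of 0.27, 0.057 and -0.023. That acetate median rests on genes below the floor, and with the 2 genes above it, Prox1 and Reln, it was -0.064. Prox1 (-0.27, -0.21 and -0.14) is also a hepatocyte gene and Reln (0.14, 0.08 and 0.05) a stellate cell gene. The defining lymphatic genes had ratios of 0.61, 0.17 and -0.0068 (Pdpn) and 0.39, 0.03 and -0.04 (Mmrn1), at levels near background. Their part in the Lyve1 values was not tested.

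**Figure D4:**
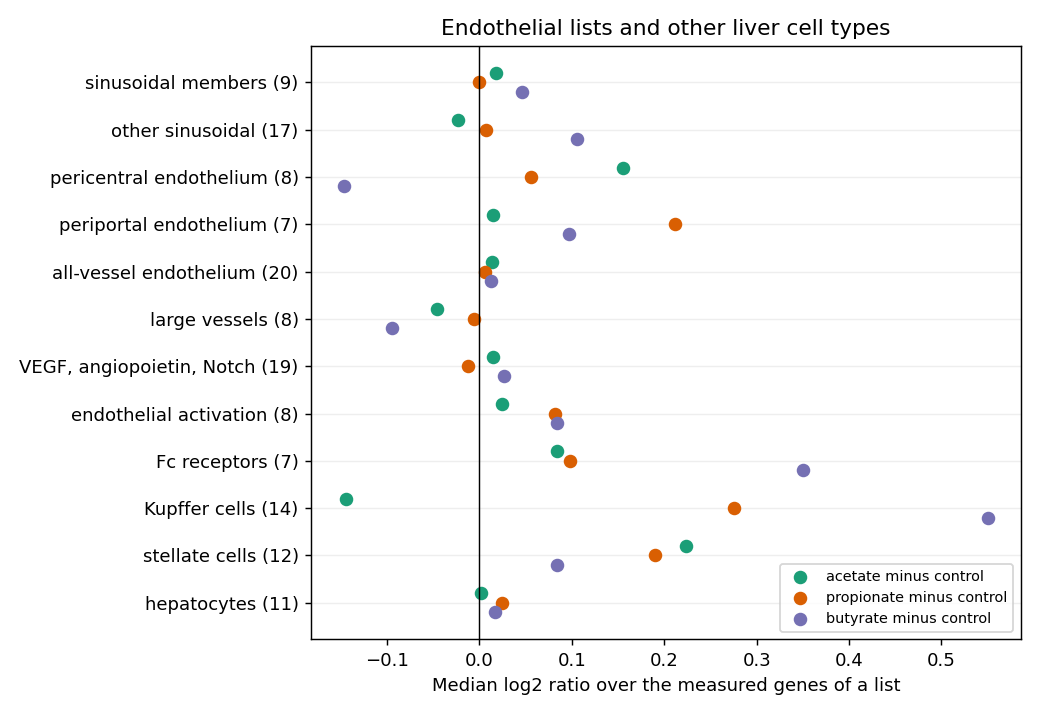
Median log2 ratio to the control pool (horizontal axis) of 12 gene lists (rows, number of measured genes in brackets) with acetate, propionate and butyrate. The sinusoidal members lie at 0.018, -0.00050 and 0.046, and Kupffer cell markers at -0.15, 0.28 and 0.55.

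Partners of Kdr and Tek likewise had medians close to control. Of 19 measured genes of the VEGF, angiopoietin and Notch systems, 11, 9 and 11 were higher, with medians of 0.015, -0.012 and 0.026. Only 11 of the 19 lay at or above the floor. Among these 11, 0, 0 and 1 were higher by at least 1.2-fold with acetate, propionate and butyrate, and 1, 0 and 0 lower. Of all genes at or above the floor, 9.91%, 10.2% and 8.6% differed that much in either direction. The ligand gene Vegfa, named for its role with its values known, had 0.07, -0.05 and 0.07, and Angpt1 lay below the floor in every pool. Notch4, an endothelial Notch receptor, had 0.23, 0.12 and 0.32 and the Notch target Hes1 -0.28, -0.12 and -0.22. Nrp1, a co-receptor of Kdr, had -0.20, -0.07 and 0.08, and the Notch ligand gene Dll4 0.01, 0.16 and 0.10.

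Hyaluronan genes, those of the ligand of Stab2 and Lyve1, numbered 10 measured of 13 listed. Of these 6, 4 and 3 were higher with acetate, propionate and butyrate, with medians of 0.075, -0.032 and -0.042. Only 4 of the 10 lay at or above the floor, and their medians were 0.022, -0.062 and -0.016. Has1 and Has2, which make hyaluronan, lay below the floor. Cd44, a hyaluronan receptor of leukocytes and other cells, read 6.12, 6.55 and 6.52 with acetate, propionate and butyrate and 5.93 in control, past 1.5-fold with propionate and butyrate. Hyal2 had -0.14, -0.04 and -0.05, Habp2 -0.02, -0.08 and -0.03 and Cemip2 0.06, -0.08 and -0.0017.

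Of 7 Fc receptor genes and partners, 5 were higher with each acid, with medians of 0.084, 0.098 and 0.35. Fcer1g, the signalling chain of the activating receptors, read 8.46, 8.86 and 9.07 with acetate, propionate and butyrate, against 8.15 in control. With butyrate Inpp5d, the phosphatase through which the inhibitory receptor acts, was at 0.37, Fcgr4 at 0.36 and Fcgr1 at 0.35. Fcgrt, the neonatal Fc receptor gene, was at -0.046 there and Trim21, a cytosolic antibody receptor gene, at -0.064, and Fcgr2b lay between these and the activating receptor genes, at 0.10. Adhesion genes of activated endothelium were mostly near background, with 2 of 8 at or above the floor. Vcam1, which Kupffer cells also express, read 8.26, 8.52 and 8.86 with acetate, propionate and butyrate and 8.22 in control, past 1.5-fold with butyrate. Icam1 had 0.07, 0.28 and 0.15.

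Kupffer cell markers moved with Lyve1 in the propionate and butyrate pools and are given beside it. Of 14 measured, 6 were above control with acetate, 12 with propionate and 14 with butyrate, and 2, 7 and 11 by at least 1.2-fold. Their medians were -0.15, 0.28 and 0.55, and their summed linear level 1.01, 1.22 and 1.43 times that of control. The scavenger receptor gene Marco had ratios of -0.24, 0.98 and 1.40 and Adgre1, which encodes F4/80, -0.18, 0.72 and 0.76. Cd68 had 0.27, 0.34 and 0.76 and Lyz2 0.43, 0.68 and 0.75, so that these markers, like Lyve1, were above control with all 3 acids. Clec4f, a lectin of mouse Kupffer cells, had -0.25, -0.10 and 0.09. Their part in the Lyve1 values was not tested.

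**Figure D5:**
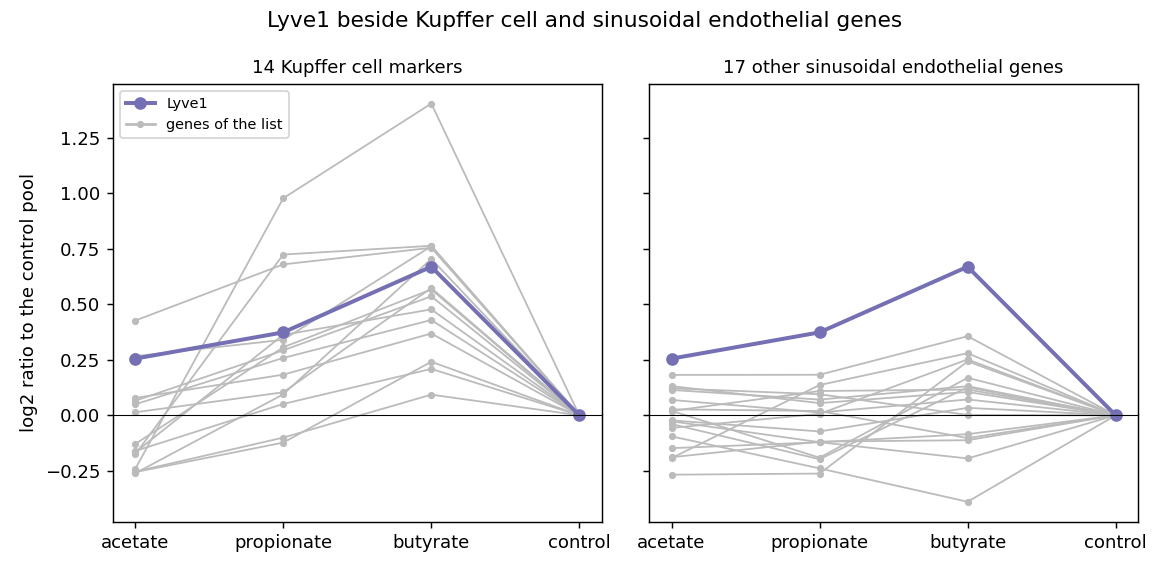
Log2 ratio to the control pool (vertical axis) in the acetate, propionate, butyrate and control pools for Lyve1 (thick line) beside 14 Kupffer cell markers (left, thin lines) and 17 other sinusoidal endothelial genes (right, thin lines), with lines joining the values of 1 gene. At 0.67 with butyrate, Lyve1 lies among the Kupffer cell markers and above all 17 endothelial genes. With acetate, Lyve1 lies at 0.26 and the median of the Kupffer cell markers at -0.15.

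The genes whose profile over the 4 pools was closest to that of Lyve1 were Ikzf1, Csf2rb2, Fam126a, Ly86 and Cd68. Closeness was the root mean square difference of pool-centred log2 values, 0.040 for Ikzf1 and 0.046 for Cd68, over 9173 genes and only 4 pools. Ly86 read 8.36, 8.58 and 8.89 with acetate, propionate and butyrate and 8.20 in control, and Csf2rb2 read 6.41, 6.55 and 6.73 with the acids, against 6.14 in control. Ikzf1 lay below the floor in control. Within a difference of 0.05 lay 5 genes, those just named. For the median profile of the 9 members, which is almost flat, 2619 genes lay that close, led by St7l, Dnase2b, Cp, Aqp9 and Rictor.

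Other cell types moved in their own ways. B cell markers, a possible source of Fcgr2b, were at background, with Ms4a1 at 3.65, 3.87 and 3.66 in the acetate, propionate and butyrate pools and 3.83 in control and 1 of 5 genes, Cd79b, at or above the floor (0.24, 0.35 and 0.33). Stellate cell and fibroblast markers had medians of 0.22, 0.19 and 0.084 over 12 genes, led upward by Col3a1 (0.72, 0.47 and 0.13), Col1a1 (0.66, 0.55 and 0.07) and Col1a2 (0.48, 0.51 and 0.12). Hepatocyte markers had medians of 0.0016, 0.024 and 0.016, with Alb at 0.01, 0.07 and 0.04. Skeletal muscle markers summed to 0.954, 1.14 and 0.207 times the control level. These markers were low in the butyrate pool, where Myl1 was at -3.15, Mb at -2.98, Atp2a1 at -2.78 and Tnnt3 at -2.53. Desmin (Des), shared by muscle and stellate cells, was at -0.75 there. The 6 adipocyte genes, 4 of them below the floor, had medians of -0.0095, -0.20 and -0.36, and the 2 at or above it 0.34, -0.013 and -0.094. Cidec, also a lipid droplet gene of hepatocytes, had 0.76, 0.02 and -0.19 and Lipe -0.08, -0.05 and -0.0019. Whether these other tissues bear on the endothelial values was not tested.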

How the data were processed

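The deposited table holds log2 expression values per probe set for 4 arrays, each of 1 pool of liver RNA (500 ng per mouse, integrity number above 8, per the labels' protocols). Per the submitters' processing notes the authors used RMA, a method that gives all arrays one distribution and combines probes into probe sets (settings not stated here). It would hide a change common to all genes of a pool. Of 35556 probe sets, 21218 had 1 symbol in the platform annotation, 21185 of them matched to RefSeq genes by Entrez ID, and 1881 with several symbols and 12457 with none entered no comparison. Probe sets of a symbol were averaged.

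Each of 6 comparisons was the log2 ratio of 2 arrays (Python 3.11.15, pandas 2.3.3). The calculation of ratios was run on simulated data, the control values with known shifts added, which checks the arithmetic only. The number of arrays limits the precision. The members and the 18 gene lists were chosen with earlier results of these data known. From each other list, the text names up to 4 genes at or above the floor with the largest absolute ratio to control, plus defining markers (Cdh5, Adgre1, Clec4f, Alb, Ms4a1, Prox1); Fcgr3, Fcgrt, Trim21, Vegfa, Angpt1, Has1, Has2, Pdpn and Mmrn1 were added after their values were seen. Alternatives were cyclic loess (limma 3.58.1), scaling to hepatocyte markers, the brightest probe set, another baseline, other floors, and the mean in place of the median. Listed genes without a probe set of 1 symbol were not analysed here.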

Additional observations from a re-analysis of the deposited data

How the results depend on the processing

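Leaving out a replicate was not possible with 1 array per group, and no paired analysis was possible because no group has a second sample. A value of at least 1.2-fold in both settings, with the same sign, was counted as unmoved. Any other movement was judged against the median absolute ratio of all genes, 0.078 to 0.10 by comparison. The 6 median ratios of the members moved by less than that with cyclic loess, hepatocyte scaling, the brightest probe set, the mean, and Lyve1 left out (an alternative chosen after seeing the data), and so did the 3 that could be set against the mean of the other 3 pools. Against control, the acetate and propionate medians were near 0 and changed sign between settings. The butyrate median was above 0 in every setting, from 0.031 to 0.097. With cyclic loess, members past 1.2-fold numbered 1 in place of 0 for acetate against control, where Lyve1 was at 0.27, and 0 in place of 1 for butyrate against propionate, where it was at 0.26. Against the mean of the other 3 pools, 0 members passed 1.2-fold with propionate and 0 passed 1.5-fold with butyrate, 1 each against control. Scaling to hepatocyte markers left all counts as they were and put Lyve1 at 0.23, 0.35 and 0.66 with acetate, propionate and butyrate. Of the 54 member ratios, the brightest probe set moved 4, all of Clec4g. Of the 27 that could be set against the other 3 pools, that baseline moved 6. These were Lyve1 with acetate and propionate, and Clec4g and Fcgr2b with propionate and butyrate. Fcgr2b with butyrate was then at -0.012. Lyve1 with butyrate fell from 0.67 to 0.46, by more than the median absolute ratio, but counted as unmoved because both values passed 1.2-fold. A floor at the 75th percentile lowered the share of all genes past 1.2-fold to 5.78%, 5.74% and 4.74% with acetate, propionate and butyrate. The share past 1.5-fold fell to 0.744%, 0.723% and 0.574% in the same order. With genes at or above the floor only, the lymphatic median with acetate was -0.064 and so changed sign. That restriction moved 11 more of the 51 medians of the other lists, 3 of them across 0: lymphatic with propionate (-0.064), adipocyte with acetate (0.34) and B cell with acetate (0.24). The other baseline moved 10 of 51, such as stellate cells with butyrate (-0.15), and the mean moved 6 of 51.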
